A study of Mus musculus with 36 samples.

Results

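A set of 5 chemoattractant receptor genes was followed in mouse eosinophils, the granulocytes of blood and mucosal tissues: C5ar1 and C3ar1, which encode the receptors of the complement fragments C5a and C3a, and the chemokine receptor genes Cxcr2, Cxcr4 and Ccr1. They were chosen by symbol, with earlier results of these data known. All 5 were among the 9844 genes of the table for 7 tissues (24 libraries) and among the 8001 genes of the table for a reporter sort (11 libraries). The study asked how eosinophils differ between tissues and how small intestine cells that carry Nmur1, a receptor of the neuropeptide neuromedin U, differ from those that do not.

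All groups came from C57BL/6 mice of 8-12 weeks at steady state, with material from males and females pooled. Total eosinophils of wildtype mice gave 3 libraries each from bone marrow, lung, skin and colon, and 4 each from blood, spleen and small intestine. Small intestine eosinophils of NMUR1-TdT reporter mice, in which TdT reports Nmur1, gave 5 Nmur1 positive and 6 Nmur1 negative libraries. With the sexes pooled, the libraries say nothing of sex. Whether the libraries of a group came from different mice is not stated, and the p-values therefore reflect only how far these libraries spread, in part perhaps for technical reasons. One single-cell sample was not analysed here.

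All 5 receptors are G protein-coupled and span the membrane several times. C5a and C3a are released when complement is cleaved, and both attract and activate granulocytes. C5ar1 is present on most myeloid cells. C3ar1 is a receptor long studied on eosinophils and mast cells. Cxcr2 binds chemokines of the Cxcl1, Cxcl2 and Cxcl5 type and is best known for drawing neutrophils out of the marrow and into inflamed tissue. Cxcr4 binds Cxcl12 and holds immature leukocytes in the marrow. Ccr1 binds Ccl3, Ccl5, Ccl6 and Ccl9, among others, and serves many myeloid cells. Eosinophils are better known for Ccr3, the eotaxin receptor.

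Values were TPM (transcript abundances on a fixed total per library), which are scaled by transcript length, so levels of different genes in a library can be set side by side. The deposited TPM keep no sequencing depth, and the depth behind each value is unknown. Nmur1 itself followed the labels of the sort, at 25.86 to 53.07 TPM in positive and 0 to 15.58 TPM in negative libraries. Among the tissues it was 7.55 to 47.39 TPM in small intestine and at most 0.65 TPM elsewhere. The eosinophil genes Siglecf, Ccr3 and Il5ra were present in every group, with mean Siglecf between 119 and 296 TPM over the 7 tissues. The granule gene Epx had a mean of 1520 TPM in bone marrow and 114 TPM in spleen, and at most 1.29 TPM in the other tissues. Its spleen libraries ranged from 37.13 to 320.23 TPM. Spleen replicate 1 had an eosinophil marker sum of 51778 TPM, against 14332, 11877 and 8945 TPM in spleen replicates 2, 3 and 4. Bone marrow libraries also held neutrophil and precursor transcripts, with S100a8 at 15202 to 17941 TPM and Elane at 5705 to 8373 TPM. Skin replicate 4 stood apart from the other skin libraries. It had the lowest deposited TPM sum of the tissue table (796048), a mast cell and basophil marker sum of 74.3 TPM against 6.5 and 7.74, and a monocyte and macrophage marker sum of 556 TPM against 895 and 819.

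Differences were tested with limma on log2(TPM + 1), where a gene counts as called at a Benjamini-Hochberg adjusted p under 0.05 over all genes tested. The median gene itself differed between groups, by -0.43 (log2) in lung against blood and by 0.22 in the sort, and other scalings moved such medians by over 0.1. For this reason each log2 difference of a receptor has the median over all genes tested subtracted ("relative to the median gene"), while the limma p-values test the difference before this shift. A lower level in a bulk library can mean fewer cells with the transcript or less of it per cell, and these cannot be told apart.

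The receptor genes lie on 4 chromosomes, at these positions of build mm10 in the GENCODE annotation, and all are protein coding. C5ar1 (ENSMUSG00000049130.6) lies at chr7:16246743-16259540 on the minus strand, beside C5ar2, the second C5a receptor gene, at chr7:16234585-16244154. C3ar1 (ENSMUSG00000040552.8) lies at chr6:122847138-122856161, minus strand. Cxcr2 (ENSMUSG00000026180.8) lies at chr1:74153989-74161246, plus strand. Cxcr4 (ENSMUSG00000045382.6) lies at chr1:128588199-128592293, minus strand. Ccr1 (ENSMUSG00000025804.5) lies at chr9:123962124-123968692, minus strand, on the chromosome that also holds Ccr3. Cxcr2 and C3ar1 moved in opposite directions between the sorted groups and between skin and small intestine, and the 145 bases that end 6 bases before their RefSeq start sites (GRCm38.p6, mm10) are shown for that reason, 5′ to 3′ on the strand of the gene. Capitals mark matches to the searched motifs.
Cxcr2, chr1:74153844-74153988, plus strand: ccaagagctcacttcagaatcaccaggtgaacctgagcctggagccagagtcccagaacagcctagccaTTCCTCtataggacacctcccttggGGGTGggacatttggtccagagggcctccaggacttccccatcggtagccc
C3ar1, chr6:122856163-122856307, minus strand: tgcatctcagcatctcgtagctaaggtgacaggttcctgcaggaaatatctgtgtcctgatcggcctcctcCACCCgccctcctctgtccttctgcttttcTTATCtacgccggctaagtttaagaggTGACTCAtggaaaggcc
In all, 6 motifs were searched on both strands: GATAA (GATA factors), TGANTCA (AP-1), TTGCNNAA (C/EBP), ACGTG (hypoxia response), GAGGAA (PU.1) and CACCC (KLF). The C3ar1 window held 1 GATAA match, starting 49 bases before the start site, 1 TGANTCA match 22 bases before it, and 1 CACCC match. The Cxcr2 window held 1 GAGGAA match, 81 bases before the start site, and 1 CACCC match. Over the same window of 32851 RefSeq promoters, 13% held GATAA, 4.15% TGANTCA, 13.9% GAGGAA and 36.5% CACCC. No matches overlapped, and the letters say nothing of binding.

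The 5 genes had 5 different tissue patterns. Lung was highest for C5ar1, skin for C3ar1 and small intestine for Cxcr2. Cxcr4 had its highest levels in blood and lung, which were not distinguished and whose order changed with the scaling, while Ccr1 was high in small intestine, skin and colon alike. Each differed among the 7 tissues in limma's F test, with adjusted p = 1.40e-15 for Ccr1, 1.02e-11 for C3ar1, 5.55e-11 for C5ar1, 6.96e-06 for Cxcr2 and 0.00135 for Cxcr4. The share of all genes called in that test was 81.1%, so 5 of 5 is close to the background. Across the 24 libraries, the largest correlation between any pair of the 5 in log2(TPM + 1) was 0.51, for Cxcr2 and Ccr1, and the lowest was -0.50, for Cxcr2 and Cxcr4. These points share tissues, and libraries of 1 tissue are not independent.

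**Figure D1:**
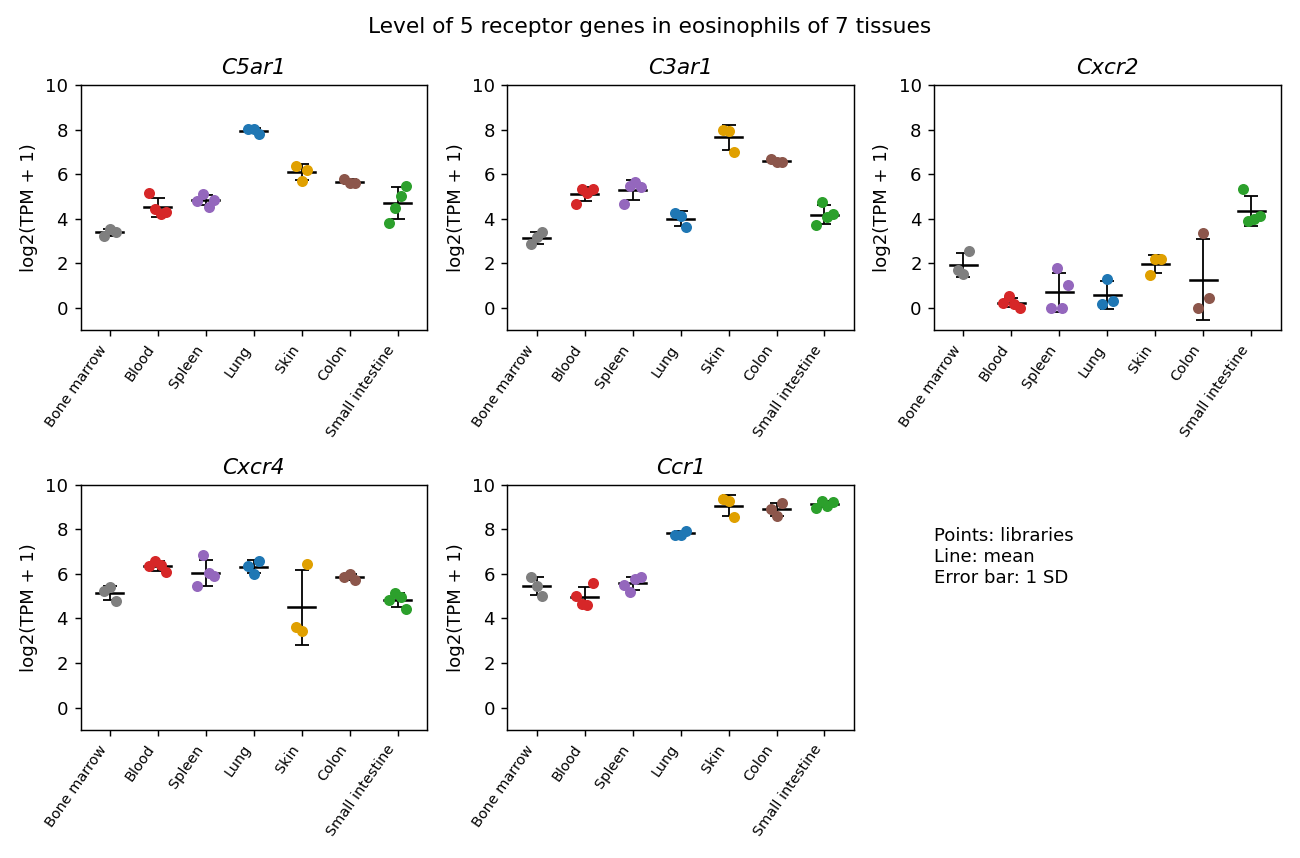
Level of each receptor gene as log2(TPM + 1) (vertical axis) in the libraries of 7 tissues (horizontal axis), where points are libraries, lines are means and bars are 1 SD (n = 3 or 4). Lung stands highest for C5ar1 and skin for C3ar1, and Cxcr2 is high in the 4 small intestine libraries and in 1 of 3 colon libraries.

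The sum of the 5 genes and its make-up also differed. The summed level was 98.8 ± 15 TPM (SD, n = 3) in bone marrow, 170 ± 8.54 TPM (SD, n = 4) in blood and 186 ± 37.5 TPM (SD, n = 4) in spleen. It was 565 ± 9.64 TPM in lung, 866 ± 184 TPM in skin and 687 ± 89.4 TPM in colon (SD, n = 3 each), and 655 ± 58 TPM (SD, n = 4) in small intestine. Means were thus at least 565 TPM in the 4 barrier tissues (lung, skin, colon and small intestine) and at most 186 TPM in the others. Cxcr4 made up 48% ± 6.71 of the sum in blood and 36.5% ± 9.17 in spleen. C5ar1 made up 43.5% ± 3.79 in lung, where Ccr1 held a further 39.6% ± 2.19. Ccr1 alone held 62.7% ± 5.8 in skin, 69.5% ± 5.36 in colon and 85.6% ± 0.95 in small intestine. These shares do not depend on how libraries are scaled.

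**Figure D2:**
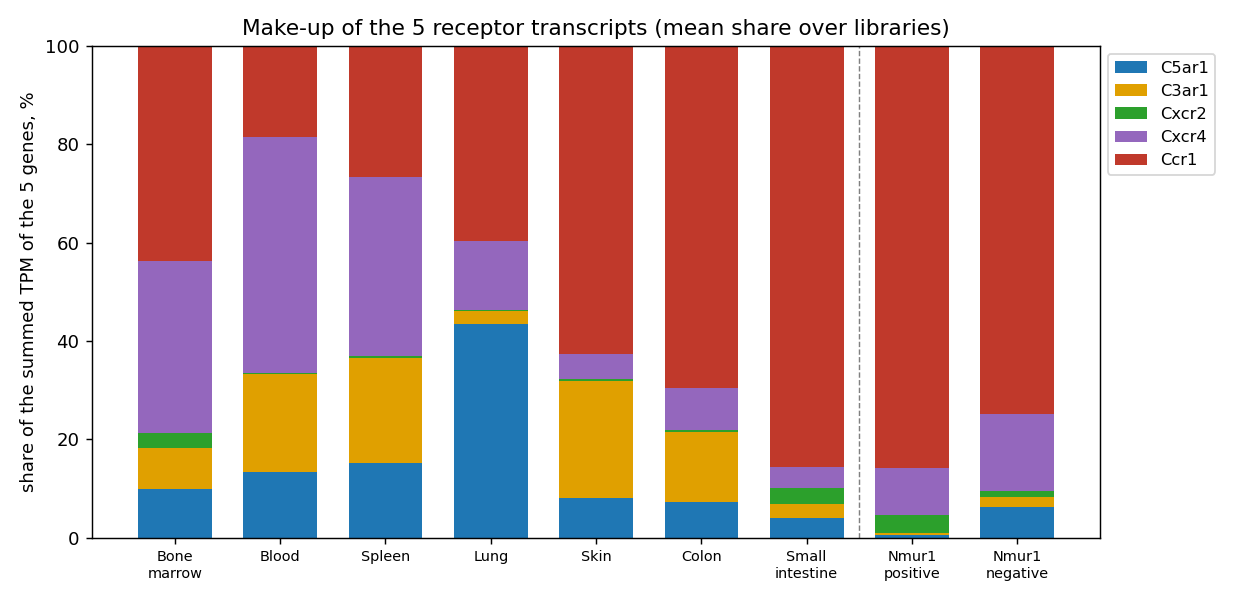
Mean share of each gene in the summed TPM of the 5 receptor genes (vertical axis, percent) for the 7 tissues and, right of the dashed line, the 2 sorted groups, which come from a separately normalised table. Cxcr4 leads in blood, C5ar1 and Ccr1 share lung, and Ccr1 takes 85.6% in small intestine.

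C5ar1, the main C5a receptor gene, was by far highest in lung eosinophils. Its lung libraries were at 255.78, 256.34 and 223.76 TPM, against 34.38, 20.42, 17.71 and 18.47 TPM in blood. Bone marrow libraries were the lowest, at 8.41, 10.67 and 9.67 TPM. No lung library overlapped any other tissue, and no bone marrow library did. The lung mean was 10.8 times the blood mean, a difference of 3.85 relative to the median gene (SE 0.29, limma adjusted p = 8.19e-10). Skin followed at 81.76, 50.11 and 71.53 TPM and colon at 54.41, 47.6 and 47.46 TPM. These ranges overlapped each other, and the skin and colon difference was not called (limma adjusted p = 0.398, 95% interval of colon minus skin -1.05 to 0.22 before the shift). Spleen libraries held 27.12, 33.48, 22.24 and 27.59 TPM and small intestine libraries 13.04, 21.37, 31.76 and 42.88 TPM. Spleen, small intestine and blood overlapped, and no pair of them was called. The order was thus lung over skin and colon, these over spleen, small intestine and blood, and bone marrow last. The steps from skin to lung (limma adjusted p = 3.03e-05) and from bone marrow to blood (limma adjusted p = 0.00339) were called. The call of colon over spleen (limma adjusted p = 0.0282) was lost when any 1 colon library was left out (0.0562 to 0.0941), without spleen replicate 3 (0.074) and under quantile normalization (0.0531). That of colon over small intestine (0.0246) was lost without any 1 colon library or without small intestine replicate 1 or 2.

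C5ar2, the second C5a receptor gene beside C5ar1, did not share the lung peak. It was at 23.07, 30.98 and 25.32 TPM in lung and at 21.65, 25.03, 20.49 and 18.96 TPM in blood, which overlapped. Skin held 3.41, 1.17 and 6.67 TPM and colon 6.28, 1.48 and 3.79 TPM. Small intestine held 0, 0.15, 1.35 and 1.54 TPM. Against blood C5ar2 was lower in skin, colon and small intestine (limma adjusted p = 5.36e-05, 9.76e-05 and 1.04e-08) while C5ar1 was higher in skin and colon. The ratio of C5ar1 to C5ar2 TPM was 0.816 to 1.59 in blood libraries, 8.27 to 11.1 in lung and 10.7 to 42.8 in skin.

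C3ar1, the C3a receptor gene, was highest in skin eosinophils. Skin libraries held 254.42, 246.62 and 127.43 TPM, and colon libraries 102.23, 92.12 and 93.25 TPM. Blood held 24.21, 39.21, 34.17 and 39.06 TPM and spleen 23.97, 43.76, 49.79 and 41.81 TPM. Skin and colon stood clear of all other tissues and of each other. The skin mean was 6.13 times the blood mean, a difference of 2.37 relative to the median gene (SE 0.28, limma adjusted p = 9.21e-08). The colon mean was 2.81 times the blood mean (1.38, SE 0.28, limma adjusted p = 0.000218). Small intestine held only 12.33, 25.67, 15.78 and 17.27 TPM, below every colon library, and lung 18.37, 16.42 and 11.26 TPM. Bone marrow was again lowest, at 6.32, 7.95 and 9.44 TPM. Lung was below blood (-0.68 relative to the median gene, SE 0.28, limma adjusted p = 0.00353). So was small intestine (-1.07, SE 0.26, limma adjusted p = 0.00564), although blood replicate 1 lay within its range. Small intestine was 5.4 times below colon (-2.44, SE 0.28, limma adjusted p = 7.55e-07). Neighbours that were not called were spleen and blood (0.926) and small intestine and lung (0.628), the second of which changed sign under median-ratio scaling. The skin over colon call (0.0156) was lost without skin replicate 1 or 2 or colon replicate 2 (0.084, 0.0802 and 0.05). The lung over bone marrow call (0.0196) was lost without bone marrow replicate 1 or lung replicate 1 or 2 (0.0567 to 0.0807).

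Markers of other cells were measured beside these levels. Of 15 monocyte and macrophage markers 8 were deposited, and their summed level was 556 to 895 TPM in skin, 406 to 461 TPM in colon, 338 to 427 TPM in lung and 292 to 435 TPM in blood. In bone marrow, where C3ar1 was lowest, the sum was 4510 to 5042 TPM, most of it Ly6c2 (mean 3799 TPM) and Lyz2 (809 TPM). Other markers of the list were lower in bone marrow than in skin, with mean Csf1r at 20.3 against 192 TPM and Apoe at 28.9 against 211 TPM. Of the defining markers, C1qb was at 7.53 to 48.83 TPM in skin, 5.85 to 15.54 TPM in colon and 0 in all blood libraries. The part of such transcripts in the skin and colon levels of C3ar1 was not tested.

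The complement receptors thus had opposite leaders, which can be read within each library without any scaling. The ratio of C5ar1 to C3ar1 TPM was 13.9 to 19.9 in the 3 lung libraries. It was 0.203 to 0.561 in skin and 0.509 to 0.532 in colon. Small intestine libraries ran from 0.832 to 2.48, bone marrow from 1.02 to 1.34, spleen from 0.447 to 1.13 and blood from 0.473 to 1.42. Lung was the only tissue whose ratio lay outside the range of all others on the high side.

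**Figure D3:**
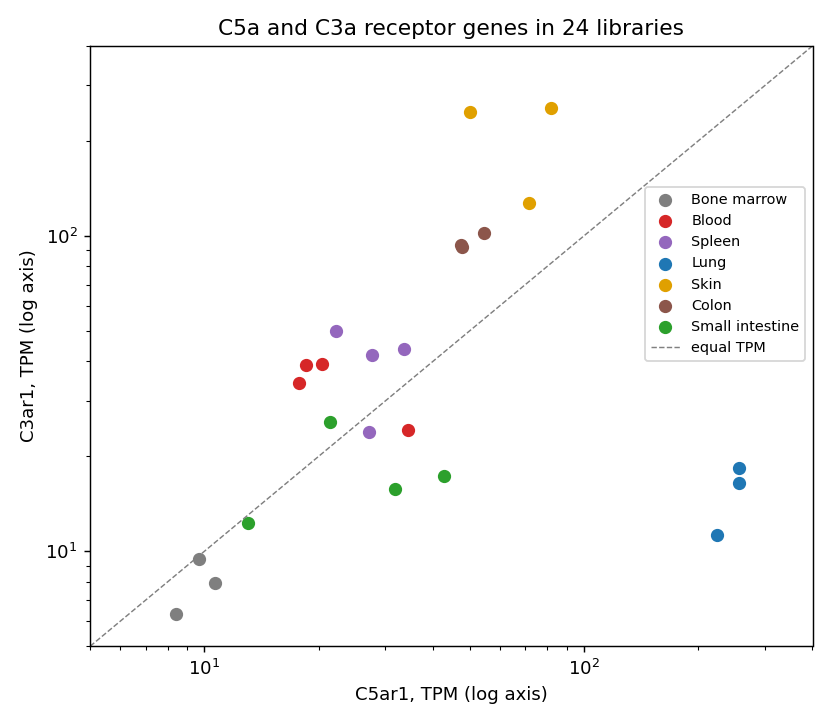
C5ar1 (horizontal) against C3ar1 (vertical) in TPM on log axes for the 24 tissue libraries, with a dashed line of equal TPM. The lung libraries lie far to the right of the line (ratio 13.9 to 19.9), and all skin and colon libraries lie above it.

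Ccr1 separated the barrier tissues from the rest. Small intestine libraries held 500.89, 617.29, 527.41 and 598.76 TPM, skin 656.28, 625.12 and 368.45 TPM, and colon 475.69, 383.78 and 581.69 TPM. Lung was intermediate at 215.32, 215.94 and 240.39 TPM. Blood held 30.82, 24.31, 23.27 and 47.67 TPM. Every lung, skin, colon and small intestine library was above every library of bone marrow (31.63 to 56.35 TPM), blood and spleen (35.03 to 56.58 TPM). The mean in small intestine was 17.8 times that in blood, or 4.03 relative to the median gene (SE 0.22, limma adjusted p = 3.54e-14). The difference from blood was 3.93 (SE 0.24) in skin, 3.82 (SE 0.24) in colon and 3.27 (SE 0.24) in lung, with limma adjusted p of 7.85e-13, 1.13e-12 and 6.55e-10. Small intestine, skin and colon were not told apart, with 95% intervals before the shift of -0.42 to 0.56 for small intestine minus skin and -0.25 to 0.73 for small intestine minus colon. Spleen, bone marrow and blood were not either, although bone marrow over blood was called without blood replicate 4 (limma adjusted p = 0.021). The calls of skin and of colon over lung (limma adjusted p = 0.000304 and 0.00156) were lost under median-ratio scaling (0.0595 and 0.115).

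Cxcr2 was highest in small intestine and lower in the other tissues. Its 4 small intestine libraries held 38.95, 14.05, 14.92 and 16.3 TPM. Blood held 0.18, 0.43, 0.14 and 0 TPM, and spleen 0, 2.41, 0 and 1.02 TPM. Lung held 0.12, 1.47 and 0.23 TPM. Every small intestine library was above every library of each other tissue. Skin held 1.79, 3.61 and 3.59 TPM, bone marrow 2.21, 1.88 and 4.8 TPM, and colon 0, 9.36 and 0.35 TPM, so that 1 of 3 colon libraries carried nearly all of the colon signal. Small intestine exceeded blood by 3.96 relative to the median gene (SE 0.55, limma adjusted p = 9.31e-07) and colon by 3.04 (SE 0.59, 0.000573). On the log2(TPM + 1) scale such differences understate the change of a gene this low. The calls of small intestine over bone marrow and over skin (limma adjusted p = 0.00168 and 0.00291) were lost with a pseudocount of 0.1 (0.0757 and 0.0994). Without colon replicate 2, colon was also below bone marrow (0.0176) and skin (0.0303). The order of the other 6 tissues was not stable. Bone marrow and skin were called above blood (limma adjusted p = 0.0292 and 0.0239), but both calls were lost with a pseudocount of 5 (0.109 and 0.0953). The first was also lost under quantile normalization (0.213) and without blood replicate 1, 3 or 4 or bone marrow replicate 1 or 3 (0.0514 to 0.141). The second was lost without blood replicate 4 or skin replicate 2 or 4 (0.052 to 0.0796).

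Since Cxcr2 is known from neutrophils, markers of those cells are given beside it. Of 16 neutrophil markers 13 were deposited, and without Retnlg, which blood and lung eosinophil libraries held at 58500 TPM and more, their sum was 560 to 642 TPM in small intestine, 852 to 1075 TPM in blood and 42840 to 46123 TPM in bone marrow. The defining marker Ly6g was at 0 in all small intestine libraries and at 21.96 to 36.48 TPM in bone marrow. S100a8 was at 1.82 to 40.64 TPM in small intestine, against 15202 to 17941 TPM in bone marrow. Csf3r, a granulocyte receptor gene of the same list, was at 9.59 to 21.85 TPM in small intestine, 14.9 to 20.47 TPM in bone marrow and 0 in lung. The sum of the monocyte and macrophage markers was 646 to 1013 TPM in small intestine, 531 to 1092 TPM in spleen and 556 to 895 TPM in skin. Of the 8 deposited, 3 were called higher and 1 lower in small intestine than in colon (all-gene share 12.7%). Cd68 was at 80.21 to 105.6 TPM in small intestine against 3.25 to 7.66 TPM in colon. Csf1r went the other way, at 30.22 to 51.85 TPM against 97.87 to 115.05 TPM. The sum of 7 deposited epithelial and stromal markers was 266 to 434 TPM in small intestine, 141 to 233 TPM in colon and 86.8 to 111 TPM in blood. The part of neutrophil, macrophage, epithelial or stromal transcripts in the Cxcr2 level was not tested.

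Cxcr4, the receptor of the marrow chemokine Cxcl12, varied least between tissues. Blood held 81.61, 95.46, 83.8 and 66.3 TPM, lung 79.59, 63.56 and 95.79 TPM, and spleen 42.59, 115.2, 63.7 and 57.98 TPM. Colon held 56.45, 63.2 and 52.01 TPM. Bone marrow was at 36.65, 41.27 and 26.27 TPM and small intestine at 26.95, 33.93, 30.3 and 20.25 TPM. The first 3 tissues overlapped, and none of their libraries reached down into the small intestine range. Small intestine was below blood (-1.67 relative to the median gene, SE 0.41, limma adjusted p = 0.00335) and below lung (-2.07, SE 0.44, limma adjusted p = 0.00685). The sorted small intestine libraries of reporter mice, from the separately normalised table, did not share this low level. They held 61.85 to 89 TPM when Nmur1 positive and 62.59 to 129.92 TPM when negative, above every total small intestine library. The reason for this gap was not tested. Bone marrow was below blood (-1.28, SE 0.44, limma adjusted p = 0.0327), a call lost with replicate number as a block (0.0564) and in 5 of the 7 fits that left out 1 of these libraries (0.0569 to 0.132). Small intestine below spleen (0.0176) was lost without spleen replicate 2 (0.0784) or small intestine replicate 4 (0.0551). Lung over bone marrow (0.038) was lost without bone marrow replicate 1 or 3 or lung replicate 1 or 3 (0.0622 to 0.127). No neighbouring pair in the order of the 7 tissues was called.

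Skin Cxcr4 rested on which library was read. Skin replicates 1 and 2 held 11.36 and 9.95 TPM, the lowest of the 24 libraries, and skin replicate 4, which stood apart in its markers, held 85.82 TPM. With all 3, skin was below blood (-2.02, SE 0.44, limma adjusted p = 0.00162) and did not differ from bone marrow or small intestine by the test (0.302 and 0.627). Without skin replicate 4, skin was also below bone marrow (limma adjusted p = 0.000185) and below small intestine (0.00143). Skin below spleen (0.00764) was lost without skin replicate 1 or 2 (0.0834 and 0.101). Skin below colon (0.0466) was lost without any 1 library of the pair except skin replicate 4, at either other pseudocount, under quantile normalization and with the replicate block.

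Against blood, the reference in which eosinophils travel, the 5 genes split by tissue. Spleen called none of the 5, where 1.09% of all genes were called. In bone marrow 1 was higher (Cxcr2) and 3 were lower (C5ar1, C3ar1, Cxcr4), where 34.6% of genes were called. In lung 2 were higher (C5ar1, Ccr1) and 1 lower (C3ar1), at a background of 35.7%. In skin 4 were higher and Cxcr4 was lower, at 37.1%. In colon 3 were higher (C5ar1, C3ar1, Ccr1) and none lower, at 31.9%. In small intestine 2 were higher (Cxcr2, Ccr1) and 2 lower (C3ar1, Cxcr4), at 44.0%. All these comparisons share the blood libraries. The sum of 6 red cell (erythroid) markers was 39114 to 118810 TPM in blood. It was 2264 to 29136 TPM in lung, 2.18 to 1393 TPM in skin, 70.9 to 349 TPM in colon and 14.4 to 17729 TPM in small intestine. In bone marrow it was 7777 to 18465 TPM and in spleen 36.2 to 39544 TPM. The part of these transcripts in the differences from blood was not tested. Ccr1 was the one receptor called higher in each of lung, skin, colon and small intestine. For lung the calls of all genes split into 882 higher and 2618 lower, and under median-ratio scaling into 1532 and 1628. For bone marrow the split was 1896 to 1497, and 1735 to 2204 under quantile normalization. For skin it was 2249 to 1390, and 1771 to 1695 under median-ratio scaling. For colon it was 1948 to 1178, and 1456 to 1771 under quantile normalization. For small intestine it was 2549 to 1761, and 1986 to 2393 under quantile normalization. For spleen it was 84 to 23, and 59 to 31 under quantile normalization.

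**Figure D4:**
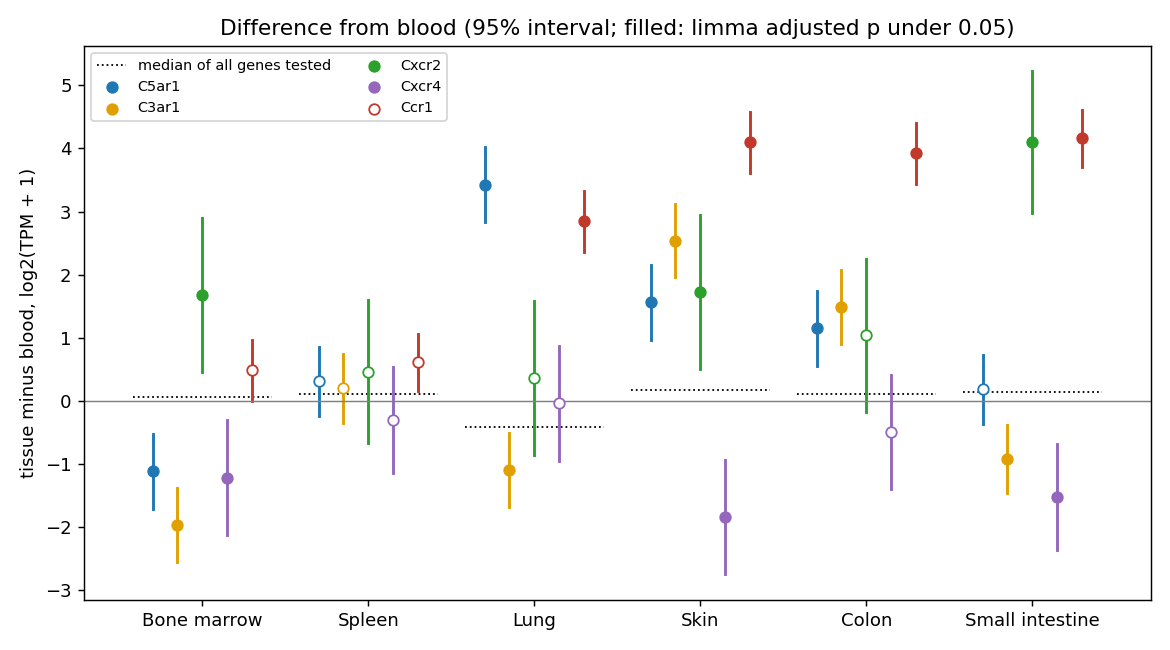
Difference of each tissue from blood in log2(TPM + 1) (vertical axis, before any shift) for the 5 receptor genes, with 95% limma intervals, filled points where the limma adjusted p was under 0.05 and dotted lines at the median of all genes tested. Ccr1 lies near 4 in skin, colon and small intestine, and Cxcr2 does so in small intestine.

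The other tissue pairs were tested in the same fit. Against bone marrow, 2 of the 5 were higher in spleen (all-gene share 31.1%), 4 in lung (53.3%), 3 in skin (40.7%), 3 in colon (35.5%) and 4 in small intestine (42.1%), and none was lower. Against spleen, 2 were higher and 1 lower in lung (42.6%), 3 higher and 1 lower in skin (35.0%), 3 higher in colon (30.3%), and 2 higher and 2 lower in small intestine (42.3%). Against lung, 2 were higher and 2 lower in skin (42.5%), 2 higher and 1 lower in colon (38.2%), and 2 higher and 2 lower in small intestine (50.2%). C5ar1 was the lower one, or one of the lower ones, in each of the 3 comparisons with lung. Colon against skin gave 1 higher (Cxcr4) and 1 lower (C3ar1) at a share of 18.2%. Small intestine against skin gave 1 higher (Cxcr2) and 2 lower (C5ar1, C3ar1) at 32.2%. Small intestine against colon, the 2 gut tissues, gave the same 1 and 2 at 12.7%.

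Small intestine against the mean of the 6 other tissues called all 5, where 40.8% of genes were called. Cxcr2 was higher by 3.11 relative to the median gene (SE 0.43, limma adjusted p = 8.16e-07) and Ccr1 by 2.06 (SE 0.17, limma adjusted p = 7.30e-11). C3ar1 was lower, at -1.23 (SE 0.20, limma adjusted p = 8.24e-05). C5ar1 was lower at -0.82 (SE 0.21, limma adjusted p = 0.00777), and Cxcr4 at -0.99 (SE 0.32, limma adjusted p = 0.029). The C5ar1 call was lost without small intestine replicate 1 (0.113), and the Cxcr4 call without small intestine replicate 1, 3 or 4 (0.0671, 0.0501 and 0.115). Calls of all genes split into 2422 higher and 1577 lower, and into 1814 and 2140 under quantile normalization. In exact two-sided permutation tests of log2(TPM + 1), small intestine against each single tissue gave Cxcr2 p = 0.0286 in all 6 pairs. That is the smallest p these groups allow, and 30 such tests were run. C3ar1 reached it against bone marrow, skin and colon, Ccr1 against bone marrow, blood, spleen and lung, Cxcr4 against blood, spleen, lung and colon, and C5ar1 against lung only.

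In the sort of small intestine eosinophils by the Nmur1 reporter 4 of the 5 receptors were called, where 14.4% of all genes were. C5ar1 and C3ar1 were low and Cxcr2 was high in positive cells. Ccr1 was called too, but that call was lost under median-ratio scaling. C5ar1 was at 10.38, 0.54, 2.52, 1.36 and 3.52 TPM in positive libraries and at 55.96, 36.25, 43.78, 36.85, 10.79 and 37.55 TPM in negative ones. The groups did not overlap, though the highest positive library (replicate 1) and the lowest negative one (replicate 7) nearly met. The negative mean was 10.1 times the positive mean, or 18.6 times without positive replicate 1, and the difference was -3.44 relative to the median gene (SE 0.47, limma adjusted p = 0.000197, exact two-sided permutation p = 0.00433). C3ar1 was at 5.15, 2.36, 7.4, 1.48 and 3.25 TPM in positive and 11.53, 11.9, 16.15, 10.62, 10.28 and 13.51 TPM in negative libraries. Again no library overlapped. The difference was -1.77 (SE 0.32, limma adjusted p = 0.00374, exact permutation p = 0.00216). Cxcr2 was at 28.25, 27.08, 46.97, 11.14 and 32 TPM in positive and 5.7, 5.6, 5.92, 5.99, 11.99 and 3.52 TPM in negative libraries. Positive replicate 5 lay just under negative replicate 7, and all others were apart. The positive mean was 4.51 times the negative mean (1.74, SE 0.35, limma adjusted p = 0.00105, exact permutation p = 0.00433).

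Ccr1 was high in both sorted groups. Positive libraries held 498.27, 870.15, 638.62, 873.53 and 708.57 TPM and negative libraries 565.23, 567.96, 378.87, 388.11, 426.45 and 367.64 TPM. Positive replicate 1 lay inside the negative range. The difference was 0.45 relative to the median gene (SE 0.17, limma adjusted p = 0.0119, exact permutation p = 0.0152), and under median-ratio scaling the call was lost (0.0658). Cxcr4 ranged from 61.85 to 89 TPM (median 73.24) in positive and from 62.59 to 129.92 TPM in negative libraries, which overlapped. It was not called (limma adjusted p = 0.505, 95% interval -0.63 to 0.20 before the shift, exact permutation p = 0.335). Of all genes 14.4% were called in the sort, against 4 of the 5 here. Those calls were 733 higher and 419 lower, and 362 higher and 591 lower under median-ratio scaling. The exact tests used all 462 regroupings and ignored that same-numbered sorted libraries may be paired.

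**Figure D5:**
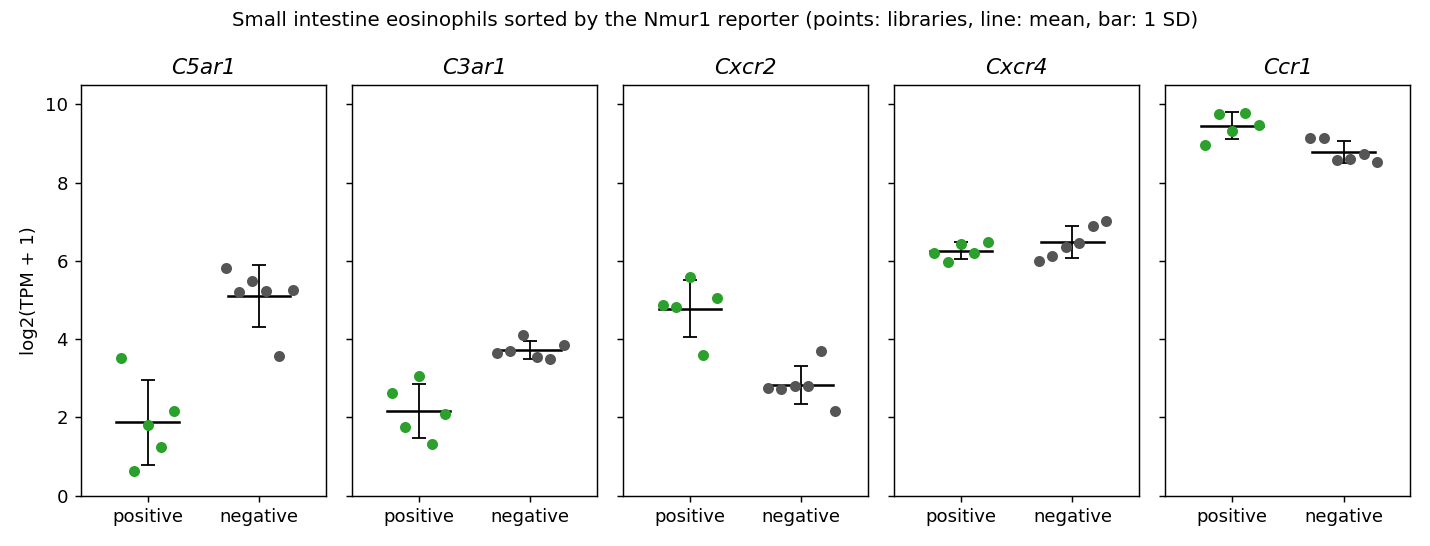
Level of each receptor gene as log2(TPM + 1) (vertical axis) in 5 Nmur1 positive and 6 Nmur1 negative libraries of small intestine eosinophils, with means (lines) and 1 SD (bars). C5ar1 and C3ar1 are lower in every positive library than in every negative one, and Cxcr2 is higher in positive libraries apart from 1 that lies just under the highest negative library.

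Within a library, the ratio of Cxcr2 to C5ar1 TPM was 2.72 to 50.1 in positive libraries (median 9.09). In negative libraries it was 0.0937 to 1.11 (median 0.145), with no overlap and no dependence on scaling. The neighbouring gene C5ar2 was also lower in positive libraries, at 0.33 ± 0.36 TPM (SD, n = 5) against 2.48 ± 0.78 TPM (SD, n = 6), with limma adjusted p = 0.004. Transcripts of other cells moved with the sort. The sum of 7 deposited monocyte and macrophage markers was 757 to 1054 TPM in positive and 385 to 543 TPM in negative libraries, Lyz2 was at 281 ± 69 TPM (SD, n = 5) against 67 ± 27.1 TPM (SD, n = 6), and Csf1r at 23.7 ± 6.34 against 28.9 ± 9.24 TPM. The sum of 3 deposited epithelial and stromal markers was 298 to 394 TPM in positive and 167 to 242 TPM in negative libraries. Of these 3 markers, 2 were called higher and 0 lower (all-gene share 14.4%). The part of macrophage, epithelial or stromal transcripts in the receptor differences was not tested. Of 7 deposited neutrophil markers 1 was called higher and 2 lower in positive libraries (all-gene share 14.4%). Csf3r was at 18.6 ± 4.81 TPM in the 5 positive libraries and 8.55 ± 4.13 TPM in the 6 negative ones (SD). Padi4 (11.1 ± 8.63 against 57.15 ± 23.7 TPM) and Retnlg (7166 ± 1554 against 10874 ± 1342 TPM) went the other way.

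For each receptor the 4 most alike genes were taken by Pearson correlation of log2(TPM + 1) over the 24 tissue libraries, among 7236 genes that reach a mean of 10 TPM in some tissue. For C5ar1 these were Fbxo11 (r = 0.95), Ehd1 (0.91), Prkab2 (0.90) and Coro1c (0.90), all highest in lung and lowest in bone marrow. Fbxo11, an F-box ubiquitin ligase subunit, reached 138 TPM in lung, and Ehd1, an endocytic recycling protein, 442 TPM. For C3ar1 they were Csf1r (0.95), the receptor of the macrophage growth factor, Riok3 (0.94), Chst15 (0.92) and the kinase gene Tec (0.91), all highest in skin. Csf1r was at 192 TPM in skin and 20.3 TPM in bone marrow. For Ccr1 they were Il2rg (0.97), the common gamma chain, Il1rn (0.97), the interleukin 1 receptor antagonist, Gadd45b (0.97) and the survival gene Bcl2a1d (0.97). For Cxcr2 they were the ascorbate transporter Slc23a2 (0.90), the Fc receptor Fcgr4 (0.88), the proton pump subunit Atp6v1d (0.86) and Dtx4 (0.85), all highest in small intestine. Slc23a2 was at 60.6 TPM there and 0.92 TPM in spleen. For Cxcr4 they were Tmcc3 (0.85), Srpk2 (0.79), Pip5k1b (0.79) and the calcineurin gene Ppp3ca (0.78). Libraries of a tissue share that tissue, so these r describe tissue patterns.

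These genes did not all follow their receptor in the sort, which the correlations did not use. The all-gene share called in the sort was 14.4%, with 733 genes higher and 419 lower. Of the 4 like Cxcr2, 3 were higher in positive libraries. Slc23a2 was at 85.6 ± 23.5 TPM (SD, n = 5) against 28.4 ± 8.79 TPM (SD, n = 6), with limma adjusted p = 0.000765, and Fcgr4 at 140 ± 38 against 44.3 ± 10.1 TPM (0.000151). Dtx4 was called too (0.00501), and Atp6v1d was not (0.35). Of the 4 like C5ar1, Ehd1 (78.6 ± 19.8 against 186 ± 44.4 TPM, limma adjusted p = 0.000307) and Prkab2 (0.000371) were lower in positive libraries, and Fbxo11 (0.075) and Coro1c (0.7) were not called. None of the 4 like C3ar1 was called lower. Riok3 was called higher (0.0433), and Csf1r, Chst15 and Tec were not called. Of those like Ccr1, Bcl2a1d was higher (0.0176), Gadd45b lower (0.00251) and Il2rg and Il1rn not called. Of those like Cxcr4, which itself was not called, Tmcc3 was lower (0.00281).

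Among 36 other chemoattractant receptor genes 10 were in the tissue table. Against blood, 3 of the 10 were higher and 5 lower in lung, 3 and 5 in skin, 4 and 4 in colon, and 3 and 6 in small intestine. The share of all genes called was 35.7%, 37.1%, 31.9% and 44.0% in these 4 comparisons. The median difference of the 10 in small intestine was -0.89, against 0.14 over all genes. Ccrl2, a receptor-like binder of chemerin, and Ptafr, the receptor of platelet-activating factor, were like Ccr1 called higher in all 4 barrier tissues. Ccrl2 was at 12.3 ± 4.22 TPM in blood, 478 ± 67.3 TPM in lung, 92.8 ± 35.6 TPM in skin, 1701 ± 387 TPM in colon and 2233 ± 280 TPM in small intestine (SD, n = 3 or 4). Ptafr rose from 127 ± 15.4 TPM in blood (SD, n = 4) to 1344 ± 110 TPM in small intestine (SD, n = 4, limma adjusted p = 3.96e-17). S1pr4, a sphingosine 1-phosphate receptor, fell from 104 ± 9.81 to 2.97 ± 1.89 TPM (SD, n = 4 each, limma adjusted p = 1.39e-12). In the sort, 7 of the 36 were deposited and 2 were called (all-gene share 14.4%), Gpr183, the oxysterol receptor, higher (58.6 ± 16.6 against 28.1 ± 9.35 TPM, limma adjusted p = 0.00962) and C5ar2 lower. Ccr3 remained the most abundant of these receptors in blood, at 1195 ± 51.6 TPM (SD, n = 4), and was called lower in lung, colon and small intestine but not in skin.

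Transcripts of ligands of the 5 receptors were found in the same libraries. Of 22 ligand genes 16 were in the tissue table. Against blood 5 were higher and 2 lower in lung, 10 and 2 in skin, 7 and 1 in colon, and 9 and 4 in small intestine, where the median of the 16 was 1.52 against 0.14 over all genes. Of all genes 35.7%, 37.1%, 31.9% and 44.0% were called in these comparisons. The Cxcr2 ligand Cxcl2 was at 28.4 ± 11.8 TPM in blood, 4785 ± 547 TPM in lung, 1691 ± 112 TPM in skin, 6016 ± 1164 TPM in colon and 8821 ± 2692 TPM in small intestine (SD, n = 3 or 4). The Ccr1 ligand Ccl3 was at 37.9 ± 26.6 TPM in blood and 6338 ± 860 TPM in small intestine (SD, n = 4 each, limma adjusted p = 4.87e-14). Ccl4, which is related to Ccl3, was at 12.6 ± 10.8 and 8154 ± 383 TPM, and Cxcl3 at 1.36 ± 0.82 and 1287 ± 474 TPM (limma adjusted p = 1.04e-12 and 9.21e-18). In the sort, where 14.4% of all genes were called, 3 of 11 ligand genes were higher and 4 lower in positive libraries. Ppbp was higher (108 ± 37.4 against 48.3 ± 16.6 TPM, limma adjusted p = 0.00791). Cxcl1 (13 ± 8.15 against 54.7 ± 32.5 TPM, 0.0136), Ccl9 (0.00919) and Rps19, a ribosomal protein that can also bind C5ar1 (391 ± 38.4 against 1242 ± 166 TPM, 1.62e-07), were lower.

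Of 43 genes of G protein signalling and receptor desensitisation 40 were measured in both tables. Against blood 2 were higher and 19 lower in lung, 9 and 11 in skin, 8 and 13 in colon and 7 and 13 in small intestine, with a median of -0.22 in small intestine against 0.14 over all genes. The all-gene shares were again 35.7%, 37.1%, 31.9% and 44.0%, and all genes called in lung also split towards lower, 882 to 2618. Rgs1, which shortens signalling of chemoattractant receptors, was at 89.3 ± 41.6 TPM in blood and 5042 ± 1471 TPM in small intestine (SD, n = 4 each, limma adjusted p = 4.12e-12). It also differed in the sort, at 6245 ± 1231 TPM when positive (SD, n = 5) and 1893 ± 328 TPM when negative (SD, n = 6, limma adjusted p = 8.40e-07). The G protein subunit gene Gngt2 was at 2.43 ± 4.86 TPM in blood and 624 ± 86.3 TPM in small intestine, while Plcb3, a phospholipase C gene, was at 22.2 ± 5.25 and 1.86 ± 1.44 TPM (limma adjusted p = 4.56e-10 and 8.57e-08). In the sort 5 of the 40 were higher and 2 lower, near the all-gene share of 14.4%. Pik3r5, a subunit of the G protein-driven PI3 kinase, was higher (187 ± 23.2 against 121 ± 22 TPM, limma adjusted p = 0.00964), and Gnai2, the inhibitory G protein through which such receptors signal, lower (53.5 ± 6.64 against 86.8 ± 9.42 TPM, 0.00613).

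Of 28 complement factors, receptors and regulators 13 were in the tissue table. In small intestine 4 were higher and 4 lower than in blood, at an all-gene share of 44.0%. Itgax, the alpha chain of complement receptor CD11c/CD18, was at 7.56 ± 3.76 TPM in blood and 313 ± 21.2 TPM in small intestine (SD, n = 4 each, limma adjusted p = 6.77e-12), and it was higher in positive than negative libraries (350 ± 49.8 against 212 ± 14.6 TPM, limma adjusted p = 0.00109). C1qb, which is also a macrophage marker, was higher in positive libraries too (29.3 ± 5.89 against 13.9 ± 3.92 TPM, 0.00965). Of 19 transcription factor genes listed as reported to act on these receptors, 17 were measured in the tissues. Of these, 6 were higher and 5 lower in small intestine than in blood, at the same share of 44.0%. Whether they act on the receptors here was not tested. Klf2 was at 564.3 ± 185 TPM in blood and 28.4 ± 16.6 TPM in small intestine, and Gata1 at 101 ± 14.1 and 26.8 ± 2.41 TPM (limma adjusted p = 1.37e-09 and 5.52e-08). Hif1a was at 25.4 ± 6.6 TPM in blood and 113 ± 16.9 TPM in small intestine (limma adjusted p = 4.83e-10). In the sort, at a share of 14.4%, 1 of 13 was higher and 2 were lower: Nr3c1, the glucocorticoid receptor gene, was higher (limma adjusted p = 0.0329), and Irf5 (0.0319) and Rela (0.0303) were lower.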

How the data were processed

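RNA of eosinophils was read with full-length Smart-seq2, per the labels. The authors deposited 2 TPM tables. The submitters' processing notes name RSEM 1.3.3, STAR 2.7.5c, cutadapt 2.10 and build mm10. For the annotation and for how genes were filtered out, the sources used here give nothing, and the depth is unknown. Values were taken as log2(TPM + 1) and fitted in R 4.3.3 with limma 3.58.1 (lmFit, eBayes with trend, two-sided), separately in each table. Genes at 1 TPM or more in at least 3 tissue libraries (9806 genes) or 5 sorted libraries (7982 genes) were tested, in a model of group means alone. All 5 receptor genes passed. A ratio of means is on the TPM scale. The self-written code was tested on simulated data. The receptor genes, the 14 gene lists, the tests and the naming rule were chosen with earlier results of these data known. The naming rule took the 4 most alike genes per receptor and, per list, up to 4 called genes with the largest change in small intestine against blood and in the sort, at 10 TPM or more in the higher group. The text prints part of them, picked after their values were seen. Other genes it names were chosen after their values were seen.

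Same-numbered sorted libraries deviated together (4 pairs, r = 0.16 to 0.23, all over 0.1). They may therefore be paired, but the labels do not say what the numbers mark. In the tissues 0 of 62 same-numbered pairs were over 0.1, which cannot exclude a weaker pairing. Promoter sequences came from RefSeq (GRCm38.p6) and positions from GENCODE M21, both mm10. Alternatives were other pseudocounts (0.1 and 5), median-ratio and quantile scaling, no filter, a minimum of 5 TPM, robust eBayes, the replicate block, each library left out, and only the 2 tissues compared.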

Additional observations from a re-analysis of the deposited data

Results flagged for a closer look

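Among 25 groups of 4 to 6 libraries checked for a value far from the rest, 2 stood out, and chance flags about 1 in 20. Cxcr2 in small intestine replicate 1 was at 38.95 TPM, with the other small intestine libraries at 14.05 to 16.3 TPM. Without it small intestine was still above the mean of the 6 other tissues, by 2.89 on the log2 scale before any shift (limma adjusted p = 2.41e-05). C5ar1 in Nmur1 negative replicate 7 was at 10.79 TPM, with the other negative libraries at 36.25 to 55.96 TPM. That library also had the highest Cxcr2 of its group, 11.99 TPM.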

How the results depend on the processing

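Of 742 alternative values for 40 receptor results (5 genes in 8 comparisons), 710 kept their direction and their side of the threshold, 22 lost a call, 2 gained one and 8 changed sign, all 8 among differences that were not called. For the other 15 tissue pairs 70 of 1100 alternative values changed sign or call. Those that end a call stand beside it in the results. Sign changes against blood, as log2 differences before any shift, were these: Cxcr4 in lung was -0.05, but 0.364 with median-ratio scaling, 0.0167 with the replicate block and -0.187 to 0.105 with 1 library left out. C5ar1 in small intestine was 0.18, but -0.0475 with quantile normalization and -0.0757 to 0.472 with 1 library left out. With 1 library left out, Cxcr2 ranged from -0.00488 to 0.566 in lung and from -0.0195 to 1.67 in colon. The cause was not tested, except that colon replicate 2 held nearly all of the colon Cxcr2. Spleen against blood called 107 genes, 41 when only these tissues were fitted, and 69 to 119 with 1 library left out. With the replicate block the sort called 1342 genes rather than 1152, and no receptor changed its call there (C5ar1 -3.84, Cxcr2 2.14). In the tissues, the check found no pairing by number but could not exclude a weaker one. There the block changed the call of Cxcr4 in bone marrow against blood (-1.16, limma adjusted p = 0.0564) and in colon against skin (0.0577). Precision is limited by 3 to 6 libraries a group and by an unknown depth, which weighs most on Cxcr2 below a few TPM.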

Other observations

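A few complement and ligand genes differed between skin, where C3ar1 was highest, blood and small intestine. They were chosen after their values were seen and stand for no group. Cfp, which encodes properdin, a stabiliser of the alternative complement pathway, was at 306 ± 102 TPM in skin (SD, n = 3), 35.7 ± 4.65 TPM in blood (SD, n = 4) and 8.81 ± 6.92 TPM in small intestine (SD, n = 4), higher than blood in the first and lower in the last (limma adjusted p = 1.93e-06 and 3.40e-05). Cd55, a regulator that shields cells from complement, had the same order, at 412 ± 215 TPM in skin, 22.4 ± 4.02 TPM in blood and 11.9 ± 3.29 TPM in small intestine (limma adjusted p = 7.28e-10 and 0.0236 against blood). Ccl9 was at 2029 ± 640 TPM in skin, 96.9 ± 21.7 TPM in blood and 26.7 ± 11.4 TPM in small intestine (1.85e-10 and 1.68e-05). Ccl6, by contrast, was highest in blood, at 23684 ± 887 TPM (SD, n = 4), and lower in skin (15315 ± 2764 TPM, SD, n = 3, limma adjusted p = 0.000793) and in small intestine (3794 ± 799 TPM, SD, n = 4, limma adjusted p = 1.05e-14).

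The Ccr1 ligands Ccl3 and Ccl4 were higher in Nmur1 positive than negative libraries. Ccl3 was at 9731 ± 2254 TPM (SD, n = 5) against 5779 ± 888 TPM (SD, n = 6) and Ccl4 at 10030 ± 1910 against 5242 ± 465 TPM (limma adjusted p = 0.00255 and 0.000124), while Ccl6 was lower (2461 ± 668 against 4085 ± 751 TPM, limma adjusted p = 0.00466).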
